A study of Mus musculus with 6 samples.

Results

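A set of 10 genes whose products mark white or brown adipocytes was followed in RNA labelled as primary myoblasts, the proliferating muscle precursor cells that fuse into fibres. They were chosen by name: Adipoq, Lep, Cfd, Fabp4, Plin1, Cidec, Retn, Pparg, Ucp1 and Cidea, out of 19057 gene symbols on the array. Every probe with one of these symbols was used, and 9 of the 10 genes had at least 1 probe, 12 probes in all. Myoblasts came from 2 groups of male C57BL/6 mice, aged 6 weeks by the labels although the methods give a younger age at isolation: wild type (WT) mice and mice with a global loss of Rev-erbα (Rev-/-), the nuclear receptor and circadian clock repressor encoded by Nr1d1. Each group was hybridised to 3 Illumina bead arrays of the mouse genome, so n = 3 per group throughout. By the labels both groups grew under ordinary growth conditions in F-10 medium with 20% fetal bovine serum and 5 ng/ml basic fibroblast growth factor. The cells had been taken from hind limb muscle and pre-plated to lower the number of fibroblasts and then expanded over 6 passages, and the methods describe their purity as judged by uniform formation of myosin-positive myotubes. The protocol speaks of independent myoblast samples without saying whether each came from its own animal, so p-values measure the spread between these arrays, which may in part be technical.

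White adipocytes store triglyceride in a single large droplet and secrete hormones such as adiponectin and leptin. Brown adipocytes hold many small droplets and burn fatty acids for heat through UCP1, a mitochondrial protein that dissipates the proton gradient. The nuclear receptor PPARγ is required for the formation of both. Brown adipocytes share a Myf5-expressing ancestry with skeletal muscle, and muscle also holds fibro-adipogenic progenitors, mesenchymal cells that can become white adipocytes.

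Promoter sequences are shown for the 4 genes whose values varied most between arrays, so that the letters shared or not shared by genes that were high on the same array can be seen. They are the 250 bases before a RefSeq transcript start (GRCm38.p6), read 5′ to 3′ on the strand of the gene, with motif matches in capitals. Lep lies at chr6:29060221-29073876 on the plus strand and its window at chr6:29059971-29060220. Cidec lies at chr6:113424634-113435760 on the minus strand, and the window shown, chr6:113434765-113435014, precedes a second transcript start inside the gene. Adipoq lies at chr16:23146536-23157968 on the plus strand, with its window at chr16:23146286-23146535. Ucp1 lies at chr8:83290348-83298456 on the plus strand, with its window at chr8:83290098-83290347.
Lep: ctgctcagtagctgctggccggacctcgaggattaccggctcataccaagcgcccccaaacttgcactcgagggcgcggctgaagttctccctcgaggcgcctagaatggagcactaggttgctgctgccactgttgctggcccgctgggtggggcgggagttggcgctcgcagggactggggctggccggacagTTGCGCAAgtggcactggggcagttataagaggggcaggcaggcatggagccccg
Cidec: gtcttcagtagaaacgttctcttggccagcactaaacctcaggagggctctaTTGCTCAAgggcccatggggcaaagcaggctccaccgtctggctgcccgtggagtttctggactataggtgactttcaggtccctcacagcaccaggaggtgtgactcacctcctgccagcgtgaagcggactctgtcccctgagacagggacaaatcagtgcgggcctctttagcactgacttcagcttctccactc
Adipoq: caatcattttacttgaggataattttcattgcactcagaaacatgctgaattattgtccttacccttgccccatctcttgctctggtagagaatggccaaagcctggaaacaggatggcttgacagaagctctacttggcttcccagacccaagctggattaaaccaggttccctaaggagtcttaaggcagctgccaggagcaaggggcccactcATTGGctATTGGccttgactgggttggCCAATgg
Ucp1: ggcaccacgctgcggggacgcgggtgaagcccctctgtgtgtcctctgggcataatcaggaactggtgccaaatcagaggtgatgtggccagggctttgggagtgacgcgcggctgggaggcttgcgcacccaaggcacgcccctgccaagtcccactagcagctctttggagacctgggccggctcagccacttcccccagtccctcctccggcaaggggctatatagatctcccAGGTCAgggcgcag

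A set of 4 motifs was searched on both strands: AGGTCA, the half-site read by many nuclear receptors including PPARγ and Rev-erbα, TTGCNNAA, a form of the C/EBP site in which N is any base, CCAAT, and the TATA-like TATAAA. No 2 of the matches printed in capitals overlap. The Lep window held TTGCNNAA at -55 to -48 from the transcript start, and the Cidec window shown held it at -198 to -191, whereas the window before the other Cidec start held none of the 4 motifs. The Adipoq window held CCAAT 3 times, at -34 to -30, -27 to -23 and -7 to -3, the first 2 on the opposite strand. The Ucp1 window held AGGTCA at -14 to -9. Over the 11 windows searched, from 8 of the 10 genes, AGGTCA was found in 3, TTGCNNAA in 4, CCAAT in 3 and TATAAA in 1. Windows of Fabp4 and Cidea were not searched. Of 32851 windows of the same length in the whole table, 14% held AGGTCA, 9.56% TTGCNNAA, 33.8% CCAAT and 12.4% TATAAA. These matches describe the letters of the windows alone.

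Values are log2 intensities after quantile normalization, which gives all arrays one distribution. A probe was taken as above background on an array when it passed a limit set from the dim probes of that array, between 6.64 and 6.76 on the log2 scale before normalization, and it was kept when this held on at least 3 arrays. Of the 12 probes, 8 were kept, for 7 genes: Adipoq, Lep, Cidec, Plin1, Pparg, Ucp1 and Cidea. The labels were compared with limma over 18556 kept probes, and a call needed a fold of 1.5 or more and a Benjamini-Hochberg adjusted p no higher than 0.05. No kept probe was called (0% of 18556, against 3.09% with an unadjusted p of at most 0.05, 1.28% higher and 1.81% lower in Rev-/-), and 0 of the 8 adipocyte probes were called or reached that unadjusted p. In limma every adipocyte probe had an adjusted p of 0.998. The 2 groups overlapped for all 8 probes, whereas 8.6% of all kept probes had groups that did not overlap. The exact 2-sided permutation test given beside single genes cannot fall below p = 0.1 with 3 arrays per group. A bulk array cannot tell a larger number of cells of one type from more RNA per cell.

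Lep, the gene for leptin, the hormone by which fat signals its stores to the brain, varied more than any other adipocyte gene. Its log2 intensities were 9.63, 7.98 and 7.15 on WT arrays 1 to 3 and 7.36, 7.27 and 7.63 on Rev-/- arrays 1 to 3. WT 1 was far above the other 5 arrays, which spanned 7.15 to 7.98 with WT 2 highest and WT 3 lowest. WT 1 was 3.13-fold over WT 2, the next array, and 4.83-fold over the median of the other 5. The WT mean of 8.26 ± 1.26 (SD, n = 3) and the Rev-/- mean of 7.42 ± 0.186 differed by -0.84 (SE 0.55, 95% confidence interval -2.13 to 0.46), less than the WT spread (exact permutation p = 0.4). Without WT 1 the difference was -0.15.

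Cidec encodes the fat-specific lipid droplet protein that enlarges droplets by fusion. Its log2 intensities were 8.78, 7.38 and 7.02 in WT and 7.41, 6.95 and 7.70 in Rev-/-. As for Lep, WT 1 was the highest array, 2.11-fold over the next, and Rev-/- 2 and WT 3 were the lowest. The groups overlapped, with means of 7.73 ± 0.93 and 7.35 ± 0.381 (SD, n = 3), a difference of -0.38 (SE 0.435, 95% confidence interval -1.40 to 0.65, exact permutation p = 0.7). Without WT 1 it turned to 0.15.

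Adipoq, the gene for adiponectin, a secreted hormone made almost only by adipocytes, was above background on all 6 arrays. Its values were 10.71, 9.32 and 9.10 in WT and 9.61, 8.53 and 10.22 in Rev-/-. WT 1 was highest and Rev-/- 3 second, 1.40-fold below it, and the same 2 arrays led for Cidec. The group means were 9.71 ± 0.87 and 9.46 ± 0.854 (SD, n = 3), a difference of -0.26 (SE 0.526, 95% confidence interval -1.49 to 0.98, exact permutation p = 0.8) that was smaller than the spread in either group. It was 0.24 without WT 1 and 0.21 without Rev-/- 2.

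Plin1 encodes perilipin 1, which coats the lipid droplet and gates access of lipases to it. Its brighter probe gave 7.25, 7.03 and 6.80 in WT and 6.86, 6.75 and 6.96 in Rev-/-, close to the background limit and again highest on WT 1. The means were 7.03 ± 0.225 and 6.86 ± 0.106 (SD, n = 3), and the difference of -0.17 (SE 0.119, 95% confidence interval -0.45 to 0.11) had an exact permutation p of 0.3. The other Plin1 probe was not above background on any array.

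**Figure D1:**
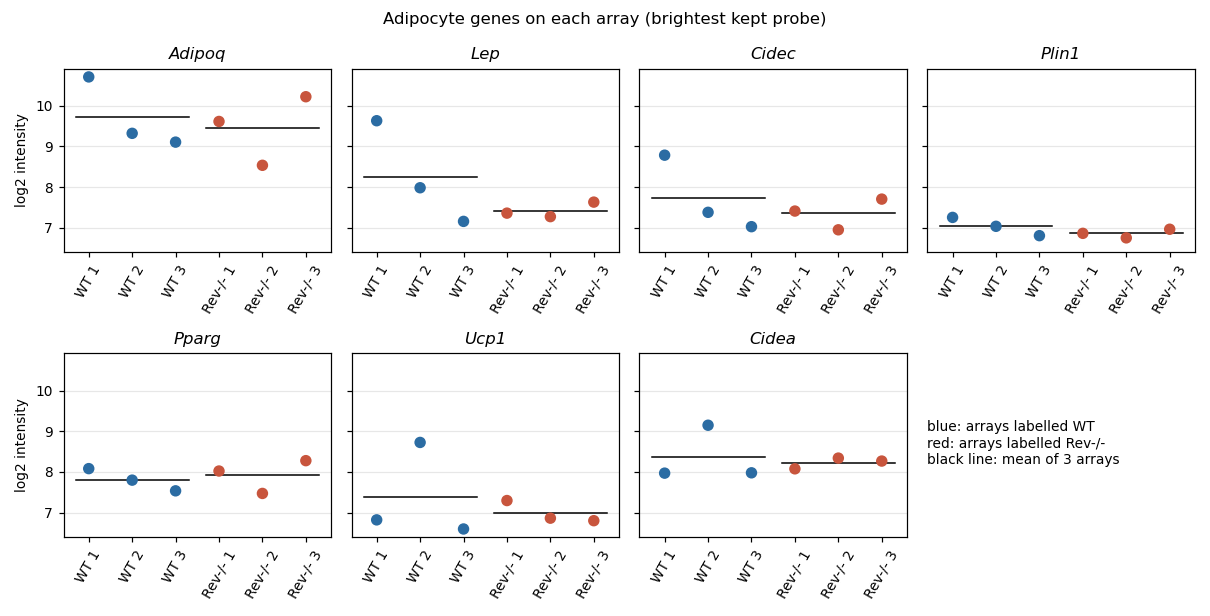
Log2 intensity (vertical axis, one scale for all panels) of the brightest kept probe of 7 adipocyte genes on each of the 6 arrays (horizontal axis), with WT in blue, Rev-/- in red and the mean of 3 arrays as a black line. Lep, Cidec, Adipoq and Plin1 were highest on WT 1, Ucp1 and Cidea on WT 2, and Pparg on Rev-/- 3.

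Pparg, the nuclear receptor gene that drives adipocyte formation, had 3 probes. The brightest gave 8.08, 7.80 and 7.53 in WT and 8.02, 7.47 and 8.28 in Rev-/-. Rev-/- 3 was highest, followed by WT 1 and Rev-/- 1, and Rev-/- 2 and WT 3 were lowest. The means were 7.80 ± 0.273 and 7.92 ± 0.412 (SD, n = 3), and the difference was 0.12 (SE 0.219, 95% confidence interval -0.40 to 0.63, exact permutation p = 0.8), and it turned to -0.0148 with array medians aligned and -0.0615 with the deposited values. A second Pparg probe, also above background on all 6 arrays, spanned 6.72 to 6.94 with a difference of 0.08 (SE 0.0723). The third was above background on 2 Rev-/- arrays and 0 WT arrays and was not kept.

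Ucp1, the gene for the heat-producing uncoupling protein of brown fat, gave 6.82, 8.72 and 6.60 in WT and 7.30, 6.86 and 6.80 in Rev-/-. It was not above background on WT 3. WT 2 stood apart from the other 5 arrays, 2.69-fold over Rev-/- 1, the next, and 3.74-fold over their median. The groups overlapped, with means of 7.38 ± 1.17 and 6.99 ± 0.27 (SD, n = 3) and a difference of -0.39 (SE 0.518, 95% confidence interval -1.61 to 0.82, exact permutation p = 0.9), which became 0.28 without WT 2.

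Cidea, a droplet protein related to Cidec and abundant in brown fat of mice, had the same highest array as Ucp1. Its values were 7.97, 9.15 and 7.98 in WT and 8.08, 8.34 and 8.27 in Rev-/-. WT 2 was 1.75-fold over the next array, and the other 5 spanned 7.97 to 8.34. The means were 8.37 ± 0.678 and 8.23 ± 0.136 (SD, n = 3), a difference of -0.14 (SE 0.302, 95% confidence interval -0.85 to 0.57, exact permutation p = 1), or 0.25 without WT 2.

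The other 3 adipocyte genes gave no measurable level. Fabp4, the cytosolic fatty acid carrier that is among the most abundant transcripts of fat, had 1 probe, which was not above background on any of the 6 arrays and spanned 6.51 to 6.69. Retn, the gene for resistin, a hormone of mouse adipocytes, likewise had 1 probe that was not above background on any array, at 6.49 to 6.64. For Cfd, the gene for adipsin, no probe used here carries the symbol. These probes leave the levels of the transcripts below the limit undetermined.

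**Figure D2:**
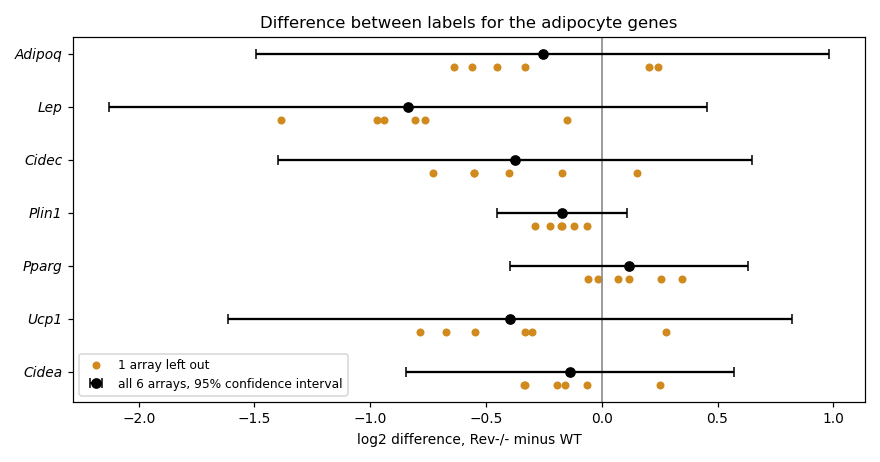
Difference of the log2 means, Rev-/- minus WT, for the brightest kept probe of 7 adipocyte genes (black points, bars the 95% confidence interval from limma, n = 3 per group), with the differences obtained when each array was left out in turn (orange points). Every interval includes 0, and for Adipoq, Cidec, Pparg, Ucp1 and Cidea the orange points lie on both sides of 0.

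The position of WT 1 and WT 2 was then set against all 11871 genes with a kept probe, each at its brightest one. By the gap between WT 1 and the next array, Lep ranked 1 (1.65 on the log2 scale) and Cidec ranked 2 (1.08) of 11871 genes, Adipoq ranked 20 (0.49) and Plin1 127 (0.22). On WT 2, Ucp1 ranked 1 (1.43) and Cidea 2 (0.81). The arrays WT 1 and WT 2 were picked because these genes were highest on them, so the ranks are no independent support. Both pairs are a description of single arrays, with no replicate of either. Under array medians aligned, cyclic loess and the deposited values without normalization, settings added after seeing the data, Lep and Ucp1 stayed at rank 1 and Cidec and Cidea at rank 2, and under normexp background correction Lep and Ucp1 were at 1, Cidea at 2 and Cidec at 3. Adipoq ranked 11 to 28 over these settings, and Plin1 moved from 42 under normexp to 753 with the deposited values.

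After Lep and Cidec, ranks 3 to 10 on WT 1 were held by Dgat2, Orm1, Cdo1, Tmem120a, Nnmt, Slc7a10, Gpat3 and Agpat2, listed by rank alone. Dgat2, which catalyses the last step of triglyceride synthesis, was at 10.20 on WT 1 and 8.54 to 9.14 elsewhere. Agpat2, an earlier step of the same pathway, was at 8.62 on WT 1 and 7.20 to 7.96 elsewhere. Orm1 encodes an acute-phase plasma protein, Cdo1 a cysteine dioxygenase, Nnmt a nicotinamide methyltransferase and Slc7a10 an amino acid transporter. On WT 2 the gaps after the first pair were smaller. There 6430571L13Rik ranked 3 at 0.45, Hspb7, a small heat shock protein of muscle, 4 at 0.44, and Cox8b, a cytochrome oxidase subunit of brown fat and muscle, 9 at 0.32.

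**Figure D3:**
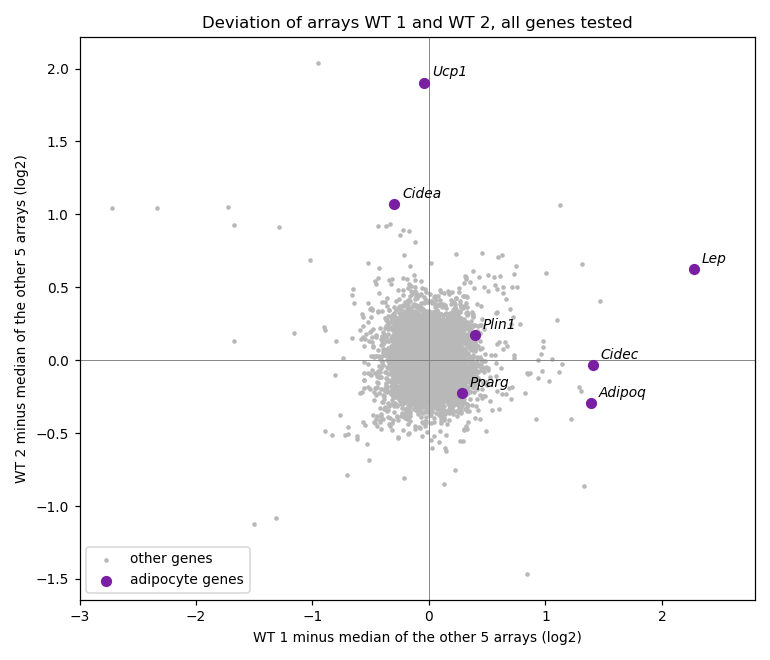
Each of 11871 genes by its log2 value on WT 1 minus the median of the other 5 arrays (horizontal axis) and the same for WT 2 (vertical axis), with the 7 adipocyte genes in purple. Lep, Cidec and Adipoq lie to the right at 2.27, 1.40 and 1.39, Ucp1 and Cidea at the top at 1.90 and 1.07, and Plin1 and Pparg among the other genes.

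Correlations over the 6 arrays were then taken between the adipocyte genes. Pearson's r was 0.92 between Adipoq and Cidec (0.954 without WT 1) and 0.951 between Lep and Plin1 (0.939 without WT 1). Between Lep and Cidec it was 0.943, and 0.61 without WT 1. Pparg ran with Adipoq (0.878, or 0.961 without WT 1). Ucp1 and Cidea gave 0.909, which was 0.09 without WT 2 and so rested on that array. Adipoq and Ucp1 gave -0.141 (0.025 without WT 1). Lep and Ucp1 gave 0.049, a value that became 0.844 without WT 1 and -0.082 without WT 2. With WT 1 left out, WT 2 was the highest array for both Lep and Ucp1. These values describe 6 arrays that share a normalization, and no test was made of them.

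Among 234 genes that spanned at least 1 on the log2 scale, those most like each adipocyte gene over the 6 arrays were taken by Pearson's r. A gene could reach that span through 1 array alone, as Orm1 did through WT 1 (8.09 there and 6.78 to 7.08 elsewhere). The r values are thus the highest of 234 on 6 arrays, were not taken without WT 1, and were not tested. Closest to Adipoq were Mgst1, a glutathione transferase of the endoplasmic reticulum (0.972), Adig, which encodes the small adipocyte protein adipogenin (0.967), Sncg, Fah and Glb1l2 (0.908). Closest to Lep were Dgat2 (0.997), Agpat2 (0.958), Orm1, Gpat3, which catalyses the first step of glycerolipid synthesis, and Slc7a10 (0.951). The leading genes for Cidec were Sncg, which encodes γ-synuclein (0.97), Gpat3, Adig, Glb1l2 and Tmem120a (0.964), and for Plin1 they were Adig (0.945), Agpat2, Slc7a10, Dgat2 and Tmem120a (0.903). Pparg had weaker matches, with Mgst1 (0.884), the iron carrier gene Trf, Fah, Adig and Glb1l2 (0.762). For Cidea they were Ckmt2, the creatine kinase of muscle mitochondria (0.787), 6430571L13Rik, Hspb7, Acot1 and Acaa2 (0.627). By this choice Adig was among the 5 closest genes for Adipoq, Cidec, Plin1 and Pparg, and no gene near Cidea was near any of these.

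The other 7 lists of adipocyte genes were read in the same way, and 0 genes of any list were called. Over all 11871 genes, 52.2% were lower in Rev-/- at a median difference of -0.0048, 3.18% had an unadjusted p of at most 0.05, 16.5% were highest on WT 1 and 15% on WT 2. Without quantile normalization 46.4% (array medians aligned) and 51.8% (deposited values) of all genes were highest on WT 1 and 80.2% and 90.7% lower in Rev-/-, whereas cyclic loess gave 17.4% and 48.9%. The counts below are those under quantile normalization. Of 14 measured adipogenic transcription factors 6 were lower in Rev-/- (median 0.01), but 9 without WT 3 (median -0.02) and 12 with array medians aligned (median -0.11), and 3 were highest on WT 1. Nr1h3, the oxysterol receptor LXRα that induces lipid synthesis, was among those 3, with 7.76 on WT 1 and 6.99 to 7.48 elsewhere. Srebf1, a driver of fatty acid synthesis genes, was at 7.17, 6.91 and 6.70 in WT and 6.71, 6.68 and 6.64 in Rev-/-. Its difference was -0.25 (SE 0.115), and it was above background on only 3 arrays. Cebpa, which sustains PPARγ expression, had a difference of 0.16 (SE 0.0774). It spanned 6.62 to 6.90, close to the background limit, and was above it on 4 arrays. Ebf2, a factor of brown precursor cells, spanned 8.31 to 8.87.

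Genes of the lipid droplet and of lipolysis were lower in Rev-/- for 10 of 12 (median -0.15), and 2 of the 12 had an unadjusted p of at most 0.05. Mgll, the lipase that splits the last fatty acid from glycerol, gave 9.47, 9.50 and 9.42 in WT and 9.26, 9.10 and 9.33 in Rev-/-, a difference of -0.23 (SE 0.0739, adjusted p = 0.998 in limma). Abhd5, the activator of the triglyceride lipase ATGL, gave 8.38, 8.25 and 8.29 in WT and 8.20, 8.08 and 8.17 in Rev-/-, a difference of -0.16 (SE 0.0664, adjusted p = 0.998 in limma). For these 2 genes the groups did not overlap, as for 8.2% of all genes. Of the 12, 6 were highest on WT 1 and 5 on WT 2. Plin4, a droplet coat protein, was at 11.34 on WT 1 and 10.35 to 10.92 elsewhere, and Plin5, its relative in oxidative tissue, spanned 8.57 to 9.44.

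Triglyceride synthesis and lipogenesis genes were lower in Rev-/- for 9 of 13 (median -0.04), and 6 were highest on WT 1. Without WT 1, 5 of the 13 were lower (median 0.02), and without Rev-/- 1, 6 were (median 0.0027). Agpat2 gave the largest difference of the list, -0.62 (SE 0.308), and Dgat2 gave -0.55 (SE 0.367), both with WT 1 highest. Me1, the malic enzyme that supplies NADPH, gave -0.18 (SE 0.102). Fasn and Acaca, the core enzymes of fatty acid synthesis, were not above background on any array. In the uptake list 6 of 8 genes were lower (median -0.08) and 5 were highest on WT 1. Aqp7, the glycerol channel of adipocytes, gave 7.96, 7.94 and 7.55 in WT and 7.26, 7.34 and 7.70 in Rev-/-, a difference of -0.38 (SE 0.15, adjusted p = 0.998 in limma). Lpl, the lipase that frees fatty acids from lipoproteins, spanned 12.76 to 13.41 with a difference of -0.26 (SE 0.124), and Slc2a4, the insulin-responsive glucose transporter, spanned 9.15 to 9.95.

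Other adipokines and white fat markers were lower in Rev-/- for 9 of 14 (median -0.06), but for 7 of 14 (median 0.02) without WT 1 and 6 of 14 (median 0.01) without Rev-/- 2, and 7 of 14 were highest on WT 1. Sncg was at 8.69 on WT 1 and 7.17 to 8.03 elsewhere, and Slc7a10 at 8.59 and 7.37 to 7.92. Car3, a carbonic anhydrase of fat and slow muscle, was at 12.97 on WT 1 and 11.96 to 12.81 elsewhere. Of 16 brown and beige fat genes 7 were highest on WT 2, against 3 on WT 1, but by small margins. The list median of WT 2 minus the median of the other 5 arrays was 0.08, and 0 of the 16 exceeded 0.5. The muscle markers Myod1 and Des were also highest on WT 2. Of the 16, 12 were lower in Rev-/- (median -0.07), but 8 when Rev-/- 1 was left out. Prdm16, the brown fat regulator, spanned 7.04 to 7.16 in WT, above all 3 Rev-/- arrays (difference -0.13, SE 0.063), and Ppargc1a, the coactivator of mitochondrial genes, gave -0.16 (SE 0.112). Tbx1 and Tbx15, developmental factors of beige and muscle cells, spanned 7.90 to 8.74 and 7.51 to 8.23. Dio2, the thyroid hormone deiodinase of active brown fat, was above background on 2 arrays, and Elovl3, a fatty acid elongase of brown fat, on 0. With array medians aligned, 46.4% of all genes were highest on WT 1. So were 9 of 12 droplet, 9 of 13 synthesis, 6 of 8 uptake and 11 of 14 white fat genes. Of the 16 brown and beige genes, 7 were then highest on WT 2, against 14% of all genes, and 7 were highest on WT 1.

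**Figure D4:**
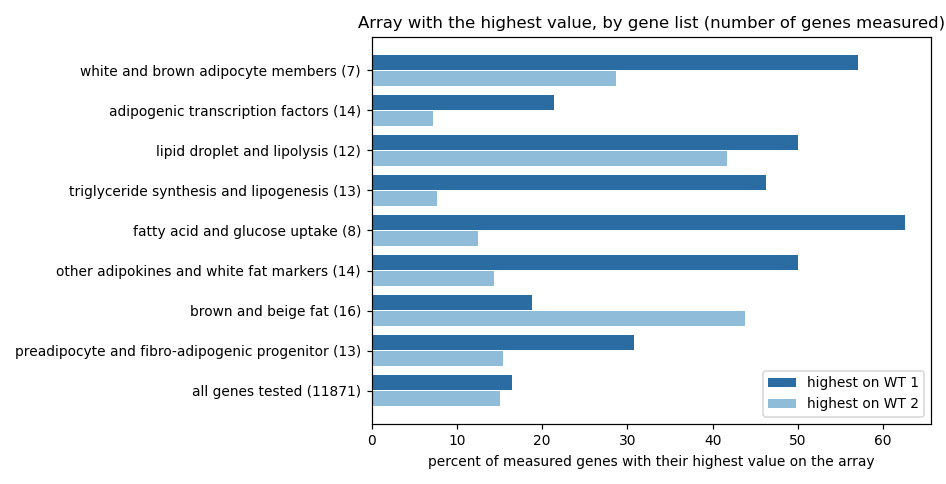
Percent of the measured genes of each list (horizontal bars, number of genes in brackets) whose highest value fell on WT 1 (dark blue) or WT 2 (light blue), with all 11871 genes at the bottom. The white fat, droplet, synthesis and uptake lists lay at 46.2% to 62.5% for WT 1 against 16.5% of all genes. For WT 2 the brown and beige list lay at 43.8% and the droplet list at 41.7%, against 15% of all genes.

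Markers of the cells from which adipocytes can form ranged from bright to near background. Dlk1, a marker of preadipocytes that myoblasts also express, was at 14.26 to 14.46, and Dcn, a matrix proteoglycan gene of fibroblasts, at 13.09 to 13.27, whereas Sfrp4, a secreted Wnt antagonist gene, was at 6.86 to 6.96 and Pdgfrb, a receptor gene of mesenchymal cells, at 7.31 to 7.72. Of 13 preadipocyte and fibro-adipogenic progenitor genes 8 were lower in Rev-/- (median -0.03), but 6 under cyclic loess (0.02), without WT 3 (0.01) and without Rev-/- 2 (0.01), and 4 were highest on WT 1, among them Dpt, a dermal matrix protein gene, with 10.61 there and 9.68 to 10.30 elsewhere. Pi16, a marker of early progenitors, gave -0.19 (SE 0.107), and Cd55 -0.14 (SE 0.0705). Their summed linear intensity was 43291 to 45827 in WT and 42741 to 50495 in Rev-/-, where the highest, Rev-/- 1, was also highest for Col1a1 (13.89 against 12.71 to 13.27 elsewhere). The part of such cells in the adipocyte values was not tested.

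The labels and the cell type were checked on the same arrays. Nr1d1, the targeted gene, gave 6.59, 6.54 and 7.22 in WT and 7.01, 6.51 and 7.14 in Rev-/-, above background on 3 arrays and not ordered by label, and the position of its probe in the deleted allele was not analysed. Of the myoblast markers Myod1 (7.84 to 8.08) and Des (12.52 to 12.93) were above background on all arrays and Myf5 and Pax7 on 0, while the muscle fibre genes Myh8 (14.48 to 14.68) and Acta1 (14.31 to 14.56) and the haemoglobin gene Hba-a1 (14.22 to 14.60) were bright on every array. Myod1 and Des were thus detected and Myf5 and Pax7 were not, and transcripts of differentiated muscle and red cells were present in both groups. Whether the RNA came from proliferating myoblasts cannot be told from these markers. Rev-/- 1 correlated least with the rest (mean r over the 18556 kept probes 0.978, where no other array was under 0.988). It held the highest osteoblast sum (4882 against 441 to 495 elsewhere, with Bglap at 11.09) and the highest neutrophil sum (13380 against 515 to 2545, with S100a8 at 13.06). Without Rev-/- 1 each adipocyte gene kept its direction and none was called. On WT 1, where Lep, Cidec, Adipoq and Plin1 were highest, the neutrophil (515), leukocyte (1784) and macrophage (683) sums were the lowest. The muscle fibre (79952) and red cell (19794) sums were also the lowest of the 6 arrays there. WT 2, where Ucp1 and Cidea were highest, had the second neutrophil sum (2545) and the highest myoblast sum (8088 against 6111 to 8032). The pan-leukocyte marker Ptprc was not above background on any array, and the brightest leukocyte marker, Laptm5, was at 10.47 on WT 1 and 10.75 to 11.82 elsewhere. Endothelial sums were 1650 to 1971 in WT and 1757 to 2140 in Rev-/-, muscle fibre sums 79952 to 86680 and 80632 to 85077, and red cell sums 19794 to 25403 and 23068 to 24597. The part of any of these cells in the adipocyte values was not tested.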

How the data were processed

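RNA labelled as from myoblasts, of 3 WT and 3 Rev-/- samples, was hybridised to Illumina mouse bead arrays. The authors deposited linear intensities, and their methods describe background subtraction and quantile normalization with lumi, whereas the deposited intensity columns do not share one distribution. The submitters' processing notes also name GenomeStudio and limma, with versions not given in the sources used here. Another 12 columns of signals and detection p-values are named by array position alone and were not used. Here the intensities of 45281 probes were quantile-normalized in limma 3.58.1 (R 4.3.3) and log2-transformed. Of these probes, 34885 have 1 gene symbol, 18 several and 10378 none. The background limit on each array was the density peak (bandwidth 0.03) with the dim side mirrored, at its 95th percentile, and the brightest kept probe stood for its gene. On deposited values these limits were intensities of 99.8 to 108.2. The 2 groups were compared by lmFit and eBayes, with no block, and with exact permutation tests for single genes. The steps were checked on data with known changes before use.

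The named genes were all 10 members, Nr1d1, in each list the called genes or else the 2 of smallest p and the 2 of widest range, the 5 genes most like each member above background on all arrays, and the brightest markers of other cells. Other genes printed (the leaders by gap on WT 1 and WT 2, and genes at background) were chosen after their values were seen. The members and lists were chosen with earlier results of these data known. The number of arrays limits the precision of every value. Alternatives were other normalizations, normexp, other filters, array weights, an intensity trend, the replicate number as a block, other call rules, probe averaging and leaving out each array.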

Additional observations from a re-analysis of the deposited data

How the results depend on the processing

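With limma the count of probes called between labels was 0 under every alternative that kept the adjusted p, and 5 where a fold of 1.5 or more and an unadjusted p up to 0.05 sufficed. Over the alternatives that tested probes, those with an unadjusted limma p of at most 0.05 numbered from 333 (without WT 2) to 3622 (deposited values), each of 18556. With the probes of a gene averaged, 319 of 11871 genes had such a p. Array medians aligned and the deposited values without normalization moved the median of all genes to -0.10 and -0.15, and the share lower in Rev-/- to 80.2% and 90.7% from 52.2%. The share of all genes highest on WT 1 was then 46.4% and 51.8%. Of 111 differences of adipocyte genes under alternatives, 0 were called and 9 had turned in sign. Of these, 4 were for Pparg: -0.0148 with medians aligned, -0.0615 with deposited values, -0.0162 without WT 3 and -0.0581 without Rev-/- 3. Leaving out 1 array gave -0.64 to 0.24 for Adipoq, -0.73 to 0.15 for Cidec, -0.79 to 0.28 for Ucp1, -0.34 to 0.25 for Cidea and -0.0581 to 0.35 for Pparg, and -1.39 to -0.15 for Lep and -0.29 to -0.06 for Plin1, which kept their direction. Ucp1 could not be fitted where a probe had to be above background on all 6 arrays. The cause of these changes was not tested. The deviations of same-numbered samples from their group means had correlations of -0.143, 0.139 and 0.037. These values cannot decide whether such samples were paired in the experiment. The limma fit with the replicate block called 0 probes (617 with an unadjusted p of at most 0.05 against 573 without it). Signal close to background limits Plin1, Ucp1 and the dimmer Pparg probe most.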
